A study of Homo sapiens with 10 samples.

Results

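DEAD box and DEAH box proteins are the largest group of RNA helicases. They were followed here across every assay of a study of YTHDF1 in HCT116, a human colorectal cancer cell line. They were taken as the genes of the study's expression table whose symbol starts with DDX or DHX followed by a digit, which gave 34 of 6914 named genes. All 34 passed the filter on low values, which left 6782 genes tested. YTHDF1 reads N6-methyladenosine (m6A), a methyl mark on mRNA, in the cytoplasm, and the study's stated subject was mRNA translation under its control. The knockdown group had 2 ribosome profiling libraries and 2 mRNA-seq libraries, titled shY1-1 and shY1-2 and called knockdown 1 and 2 here. The control group had 1 library per assay, in cells with a hairpin against GFP per the file headers. YTHDF1-bound RNA (RIP) and its whole cell lysate input had 1 library each, and m6A-seq had 2 replicates, all from control cells. Per the labels, every sample had cycloheximide at 100 ug/ml for 3 min. The genotype field gives shY1 for both knockdown titles, which leaves unclear if 1 or 2 hairpin sequences were used, and nothing says that libraries came from separate cultures.

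Both protein families use ATP to unwind short RNA duplexes or to remodel RNA-protein complexes, and they take their names from the amino acids Asp-Glu-Ala-Asp or Asp-Glu-Ala-His in their core. DEAD box proteins mostly pry open short duplexes locally, while many DEAH box proteins move along 1 strand. They act at nearly every step in the life of an RNA, from transcription and splicing through ribosome assembly to translation and decay. Of the 34 genes, 12 act in ribosome biogenesis, 6 in splicing, 6 in transcription and other nuclear steps, 4 in translation, decay and export, 2 in mitochondria, and 4 were put in no such list.

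Values of the expression table are relative abundances with no named unit. They summed to 940861 and 1042858 in knockdown footprints against 1229171 in control footprints, and to between 340208 and 345453 in the mRNA libraries. The 34 genes made up 0.422% and 0.376% of the footprint total in knockdown 1 and 2 and 0.46% in the control. YTHDF1 itself had mRNA values of 8.62 and 7.81 in the knockdown libraries and 27.4 in the control. Its footprints were 17.0 and 19.9 against 61.4. In limma over all genes, even YTHDF1 did not reach an adjusted p under 0.05 in either assay (footprint adjusted p = 0.552). Of 8 epithelial markers 6 were in the table, and their summed mRNA was 3406 and 1957 in knockdown cells and 2332 in control cells, with summed footprints of 2666 and 1510 against 2073. EPCAM, KRT8 and KRT18 were high in every library, and CDH1 had mRNA of 21.4 and 18.9 in knockdown cells against 20.1 in control cells. CDX2 and KRT20 were low in mRNA, at 2.49 and 1.78 against 3.07 and at 1.39 and 0.982 against 1.36. KRT20 had footprints of 1.10 and 0.473 in knockdown cells and 6.34 in control cells. The 3 fibroblast markers present of 5 were low in mRNA, with sums of 7.13 and 6.35 in knockdown cells and 7.51 in control cells. In footprints COL1A1 had 13.2 and 3.71 in knockdown cells and 0.631 in control cells, and FN1 had 0.312 and 1.88 against 10.5. Of 4 blood markers CD68 alone was present, with mRNA of 4.98 and 19.9 against 19.9 and footprints of 10162 and 9485 against 15090. Its footprint over mRNA ratio, with 1 added to each value, was 721 in the control and lay at percentile 99.97 of all genes. Whether these footprints come from CD68 mRNA was not tested, so they are not read as its translation. The part of these differences in the results below was not tested. In bulk samples such as these, fewer cells of a type and less RNA per cell cannot be told apart.

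After knockdown, footprints of most helicase genes were lower than in the control. The mean change was below 0 in 33 of 34 genes, against 69.4% of all genes. In 31 of 34 both knockdown libraries lay below the control, against 51.2% of all genes, and in 1 gene, DHX57, both lay above it, against 17.5% of all genes. DDX1 and DDX20 had 1 knockdown library on each side. The median log2 change, on the log2(value + 1) scale used for all changes here, was -0.61 over the 34 genes and -0.28 over all genes tested. By library it stood at -0.64 for knockdown 1 and -0.56 for knockdown 2, where the medians of all genes were -0.19 and -0.34. No helicase gene passed the test, which was limma over all genes with adjusted p under 0.05 and which called 0.0295% of all genes. At an unadjusted p under 0.05, limma picked 7 helicase genes, against 8.85% of all genes, and all 7 were lower, against 6.99% of all genes on that side.

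**Figure D1:**
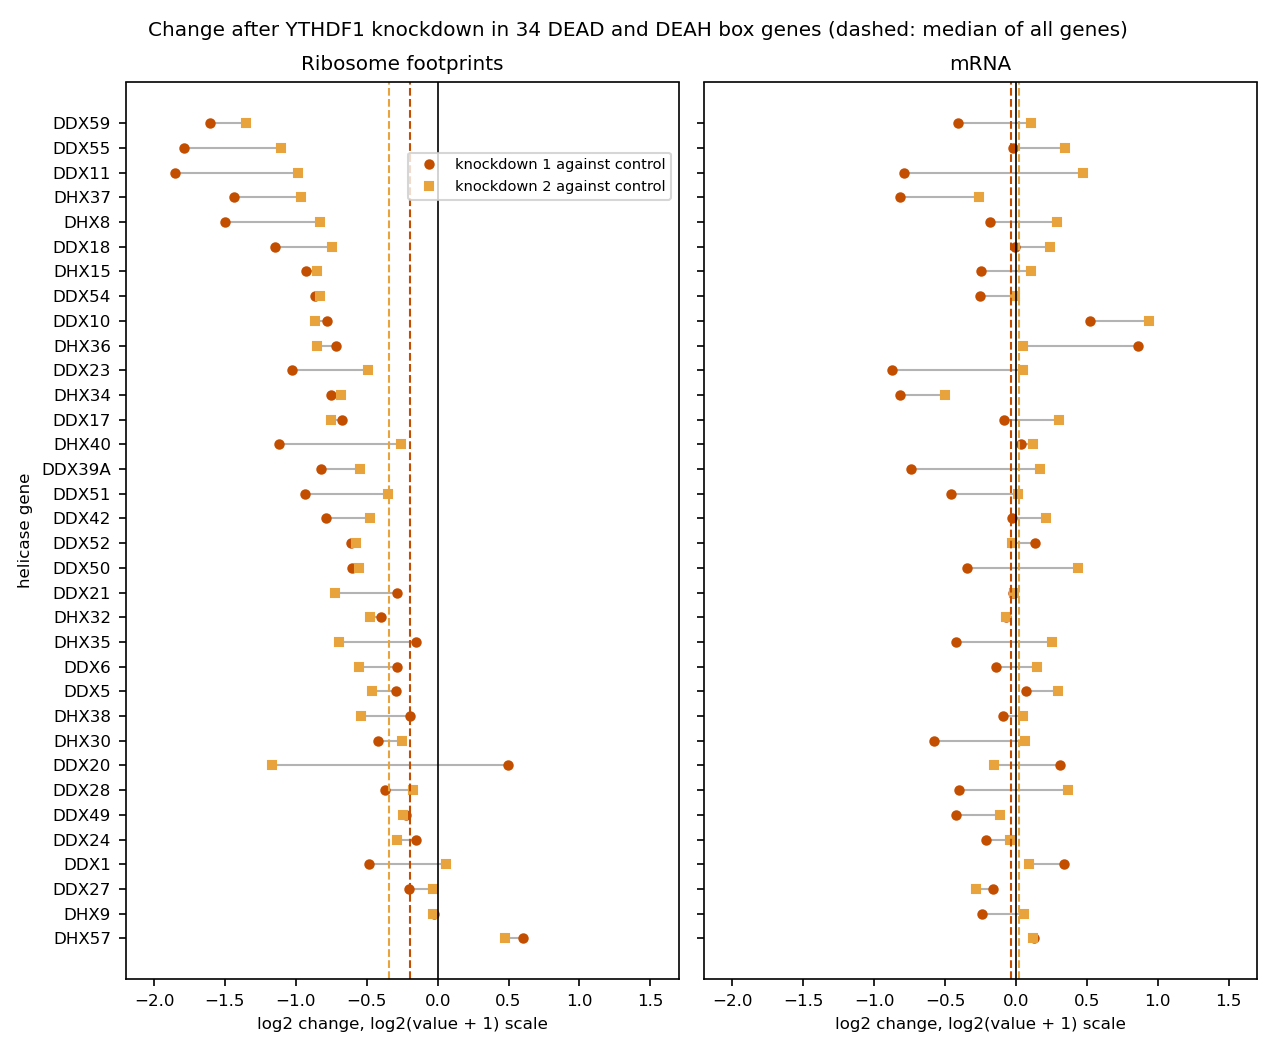
Log2 change of each helicase gene in knockdown 1 (circles) and knockdown 2 (squares) against the control, for footprints on the left and mRNA on the right, with genes ordered by mean footprint change and dashed lines at the median of all genes. Footprint points lie left of 0 in both libraries for 31 of 34 genes, while mRNA points fall on both sides of 0.

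The lowest footprint change belonged to DDX59, a helicase linked to ciliary signalling (chromosome 1, 200640805 to 200669907, in RefSeq's GRCh38.p14 as for all gene positions here). Its footprint value was 15.7 in knockdown 1 and 18.9 in knockdown 2, against 49.8 in the control, a log2 change of -1.48 ± 0.46 (SE; limma unadjusted p = 0.0169, adjusted p = 0.552). Both knockdown libraries were at about the same level, well under the control. DDX55, which acts in assembly of the large ribosomal subunit (chromosome 12, 123602099 to 123620943), had 16.4 and 27.0 in knockdown footprints against 59.1 in the control. Its change was -1.45 ± 0.48 (SE; limma adjusted p = 0.552).

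DDX11, a DNA helicase of sister chromatid cohesion (chromosome 12, 31073860 to 31104799), had 9.01 and 17.3 in knockdown footprints against 35.2 in the control (change -1.42 ± 0.66 SE, limma adjusted p = 0.575). The genome holds near-identical copies of DDX11, so its values are uncertain where reads could be shared, as are those of DDX39A, which has a close paralogue. DHX37, which releases the U3 snoRNA in assembly of the small ribosomal subunit, had 6.27 and 9.06 against 18.7 (change -1.20 ± 0.49 SE, limma adjusted p = 0.561). DHX8, which frees spliced mRNA from the spliceosome, had 29.2 and 47.1 against 84.3 (change -1.16 ± 0.47 SE, limma adjusted p = 0.560). These 5 genes were taken for their low changes. In each, both knockdown libraries lay below the 1 control library, as in 51.2% of all genes, and knockdown 1 was the lower of the knockdown libraries.

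Of these 5, DDX11 had an unadjusted p of 0.0703 in limma and was not among the 7 genes under 0.05, which DDX18, DHX15 and DDX54 complete. DDX18, a pre-rRNA processing helicase, had 110 and 145 in knockdown footprints against 244 in the control. DHX15, which takes apart spent spliceosomes, had 275 and 289 against 523. DDX54, a nucleolar helicase, had 86.4 and 88.3 against 158, so its knockdown libraries differed by far less than either did from the control. Changes were -0.95, -0.89 and -0.85, with limma adjusted p = 0.552 for each. The count of 7 was 3 without footprint knockdown 1 (8.82%, against 13.4% of all genes) and 8 without footprint knockdown 2 (23.5%, against 21% of all genes). It was 2 without mRNA knockdown 1 (5.88%, against 4.41%) and 1 without mRNA knockdown 2 (2.94%, against 4.36%). With any 1 knockdown library left out, the helicase share was therefore near or below that of all genes. When each assay was fitted alone, so that mRNA libraries did not enter the footprint spread, the count was 3 (8.82%, against 4.36% of all genes).

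DHX57, a little-known DEAH box protein (chromosome 2, 38797729 to 38875934), stood apart in direction. It had 23.0 and 20.9 in knockdown footprints against 14.8 in the control, a change of 0.54 ± 0.46 (SE; limma adjusted p = 0.698). DHX9, which unwinds double-stranded RNA and RNA-DNA hybrids, had nearly equal footprints of 203 in each knockdown library and 207 in the control. DDX27, a pre-rRNA processing helicase, had 21.2 and 23.9 against 24.5, and DDX24, of the large ribosomal subunit pathway, had 71.8 and 65.2 against 79.8. These 3 genes had the smallest footprint differences among genes with both knockdown libraries below the control.

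By role, all 12 ribosome biogenesis genes had both knockdown libraries below the control in footprints, against 51.2% of all genes, with a median change of -0.62. So did all 6 splicing genes, with a median of -0.70, and all 4 genes of translation, decay and export, with a median of -0.70. Of the 6 genes of transcription and other nuclear steps 4 did, with a median of -0.36, and of the 4 genes in no list 3 did. Both mitochondrial genes did, with a median of -0.30, close to the median of all genes. Both libraries are set against the same control library and most role groups are small, so these counts are descriptions. None of these role groups held a gene that passed the test.

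Several well-known members had differences smaller than the family median. DDX6, which represses translation and promotes decapping of mRNA, had 331 and 275 in knockdown footprints against 404 in the control. DDX21, a nucleolar helicase that links rRNA transcription to processing, had 209 and 154 against 255. DDX5, a coregulator of transcription and splicing, had the highest footprint values of the family, at 1555 and 1386 against 1911. In each of them both knockdown libraries lay below the control, with changes of -0.42, -0.50 and -0.38 and limma adjusted p of 0.666, 0.635 and 0.664. DHX30 had 31.9 and 35.9 in knockdown footprints against 43.0, a change of -0.34. DHX36 went the other way, with 46.5 and 42.3 against 76.9. Its change of -0.78 (limma adjusted p = 0.611) was larger than the family median of -0.61.

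Part of the difference is shared by all genes. After median centring of the libraries 27 of the 34 helicase genes had a negative mean footprint change and after quantile normalisation 29 did, against 49.4% and 50.9% of all genes. At an unadjusted p under 0.05 limma then picked 1 helicase gene after median centring and 2 after quantile normalisation, which are smaller shares than the 7.37% and 7.84% of all genes. Against the median of all genes in their own library, 22 of the 34 were lower in both knockdown libraries, where 32.5% of all genes were. The helicase median minus that of all genes was -0.33, and it lay between -0.215 and -0.447 when 1 library was left out.

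The start sites of the genes with the lowest footprint changes, and of DHX57 for contrast, are shown because these genes mark the ends of the footprint range. Each line gives the 120 bases just before the annotated start of the gene, 5′ to 3′ on the strand of the gene, from the RefSeq promoter table for GRCh38.p14. Capitals mark GGAAGT or its reverse complement ACTTCC, the core that ETS transcription factors bind.
DDX59, chr1:200669908-200670027, minus strand: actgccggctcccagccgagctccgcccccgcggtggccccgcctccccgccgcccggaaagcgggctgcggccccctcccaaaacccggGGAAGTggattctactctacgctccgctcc
DDX55, chr12:123601979-123602098, plus strand: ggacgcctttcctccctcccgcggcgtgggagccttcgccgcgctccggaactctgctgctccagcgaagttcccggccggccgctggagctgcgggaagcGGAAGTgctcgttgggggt
DDX11, chr12:31073740-31073859, plus strand: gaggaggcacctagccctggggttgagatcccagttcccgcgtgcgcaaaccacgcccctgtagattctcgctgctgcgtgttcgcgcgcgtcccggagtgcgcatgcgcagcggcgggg
DHX37, chr12:124989132-124989251, minus strand: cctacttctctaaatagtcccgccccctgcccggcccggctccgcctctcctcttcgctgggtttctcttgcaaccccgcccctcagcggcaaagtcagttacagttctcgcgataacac
DHX8, chr17:43483855-43483974, plus strand: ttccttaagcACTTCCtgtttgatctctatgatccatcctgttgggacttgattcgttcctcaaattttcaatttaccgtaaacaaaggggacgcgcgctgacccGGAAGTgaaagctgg
DHX57, chr2:38875935-38876054, minus strand: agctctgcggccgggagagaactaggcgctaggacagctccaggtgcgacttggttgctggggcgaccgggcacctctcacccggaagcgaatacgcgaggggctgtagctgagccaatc

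The GGAAGT core stood in these windows of DDX59, DDX55 and DHX8. Over the 250 bases before the start, on both strands, it was found in 16 of 31 helicase genes with a promoter in the table (51.6%), against 24.2% of genes tested and 19.9% of all 27305 promoters. DHX37 has it further out than the bases shown. CACGTG, the E-box that MYC binds, was found in 6 of the 31 (19.4%), DDX5 and DDX54 among them, against 9.21% of genes tested and 6.49% of all promoters. CCAAT was found in 14 (45.2% against 35.7% of genes tested), GGGCGG in 21 (67.7% against 70.5%) and TATAAA in 1 (3.23% against 4.65%). Of the other motifs among 9 searched, CGCATGCG was found in 4, the longer NRF1 palindrome that holds it in 2, and ATTTGCAT and the BANP palindrome in none (12.9%, 6.45%, 0.00% and 0.00%, against 3.59%, 2.17%, 1.04% and 0.803% of genes tested). A match is a description of these letters and was not tied to any measurement here.

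For mRNA the same genes showed no common direction. In 8 of 34 both knockdown libraries lay below the control, against 29.9% of all genes, and in 6 both lay above, against 30.9%. The mean change was below 0 in 19 genes, against 50.7% of all genes. The helicase median stood at -0.02 (knockdown 1 at -0.17, knockdown 2 at 0.10), and the median of all genes was -0.01. No helicase gene passed in limma (0.0% of all genes did), and none had an unadjusted p under 0.05, which 0.472% of all genes had. Without mRNA knockdown 1 the median was 0.10 and 10 genes (29.4%, against 46% of all genes) were below the control. Without mRNA knockdown 2 it was -0.17 and 26 genes were (76.5%, against 53.1%), so the direction of the mRNA median rests on which library is used.

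DDX10, which acts in assembly of the small ribosomal subunit (chromosome 11, 108665069 to 108940927), had the highest mRNA change. Its mRNA value was 63.7 in knockdown 1 and 85.0 in knockdown 2, against 43.97 in the control, a change of 0.73 ± 0.36 (SE; limma unadjusted p = 0.084, adjusted p = 1). Its footprints went the other way, at 28.6 and 27.0 in knockdown libraries against 49.9 in the control. DHX36, which unwinds G-quadruplexes in RNA, had mRNA values of 10.6 and 5.62 in knockdown against 5.39 in the control, so 1 library sets its mean. DDX1, a subunit of the tRNA ligase complex, had 53.1 and 44.5 against 41.7, and DDX5 had 804 and 939 against 764. Both knockdown libraries of these 4 genes lay above the control.

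On the lower side, DHX34, which promotes nonsense-mediated decay of mRNA, had mRNA values of 9.38 and 11.9 in knockdown against 17.3 in the control, a change of -0.66 ± 0.48 (SE; limma adjusted p = 1). Its footprints were 2.39 and 2.57 against 4.73, so both assays were lower. The footprint change was -0.72, near that of mRNA on the log2(value + 1) scale. Without the added 1, the mean knockdown value was 52.5% of the control in footprints and 61.7% in mRNA. DHX37 mRNA stood at 10.8 and 16.4 against 19.9 (change -0.54 ± 0.49 SE, limma adjusted p = 1). DDX49, a nucleolar helicase, had 19.1 and 23.9 against 26.0, and DDX27 had 13.6 and 12.5 against 15.4. In the remaining 20 genes the knockdown libraries lay on opposite sides of the control. DDX23, a helicase of the U5 snRNP, is an example with 25.4 in knockdown 1 and 49.0 in knockdown 2 against 47.3.

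Translation efficiency, the ratio of footprints to mRNA with 1 added to each value, was first described in the control. Each assay has 1 library there, so no test is possible. Footprint and mRNA libraries were scaled separately, so an efficiency is read by its place among all genes and not as an absolute rate. The median log2 efficiency of the 34 genes was 1.55 in the control, against 1.08 for all genes, and 22 of 34 lay above that median. The genes spread over nearly the whole range, from percentile 3.07 to percentile 97.7.

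At the top on this scale stood DDX18, with a footprint value of 244 over an mRNA value of 18.4, a log2 efficiency of 3.66 and percentile 97.7. DHX36 followed at 76.9 over 5.39 (log2 efficiency 3.61, percentile 97.5), then DHX15 at 523 over 50.6 (3.35, percentile 95.8) and DDX50 at 41.8 over 3.89 (3.13, percentile 94.3). The added 1 lowers the ratio most where mRNA is low, as in DHX36 and DDX50. Without it, the values of DHX36 give a higher ratio than those of DDX18. DDX50 is a nucleolar paralogue of DDX21, which itself lay at percentile 89.2. At the bottom stood DHX34, with 4.73 over 17.3 (log2 efficiency -1.67, percentile 3.07). DHX30, which acts in assembly of the mitochondrial ribosome, had 43.0 over 93.7 (-1.10, percentile 6.93), and DDX28, which acts in the same process, had 9.23 over 12.1 (-0.36, percentile 16.8). DHX37 had 18.7 over 19.9 (-0.09, percentile 20.9). Both mitochondrial helicases were thus among the 3 lowest, and 3 of the 4 highest were a splicing factor and nucleolar helicases.

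**Figure D2:**
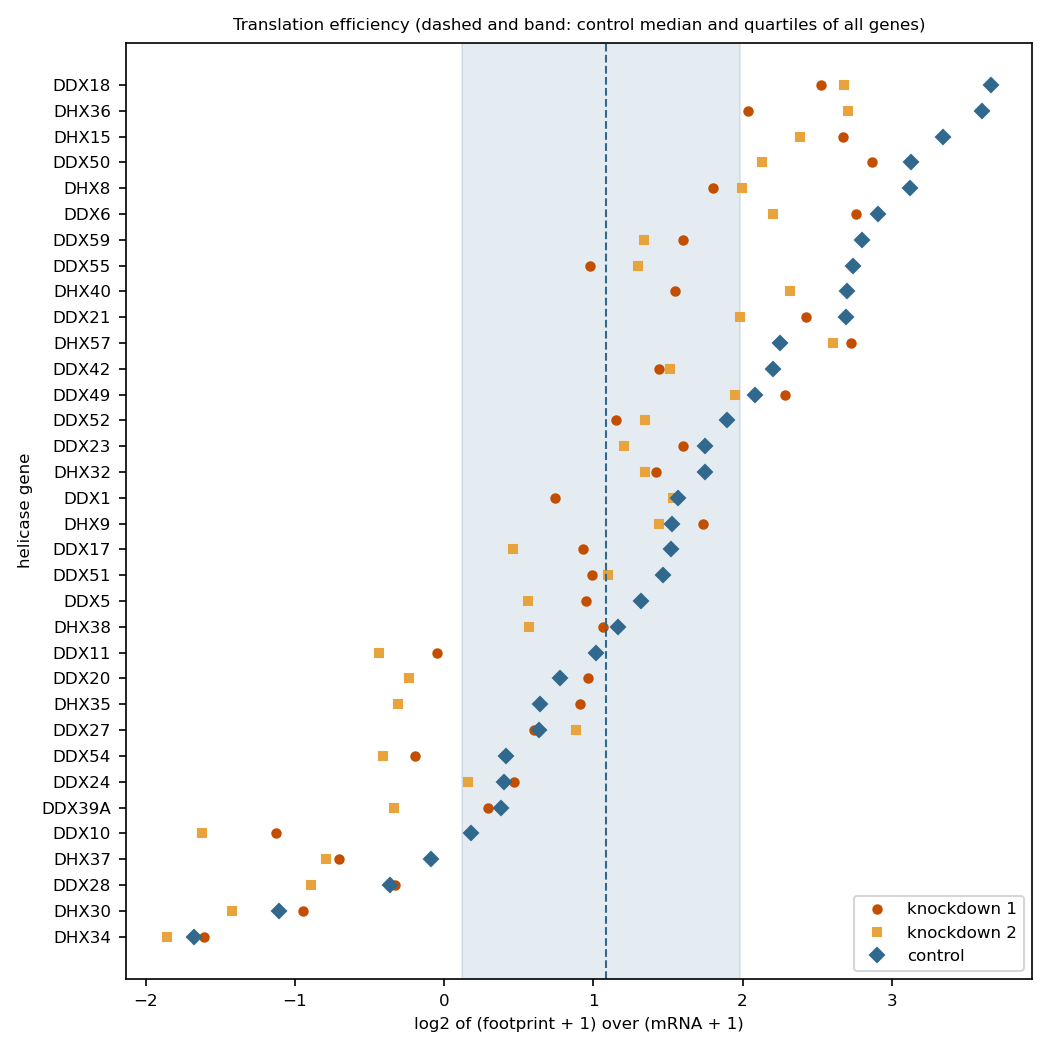
Log2 of (footprint + 1) over (mRNA + 1) for each helicase gene in knockdown 1 (circles), knockdown 2 (squares) and the control (diamonds), ordered by the control value, with the control median and quartiles of all genes as a dashed line and band. DDX18 and DHX36 lie at the top and DHX34 at the bottom, and most knockdown points lie left of the control diamond.

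The order of the genes was largely kept in the knockdown libraries. Across the 34 genes the control efficiency correlated with that of knockdown 1 at r = 0.898 and with that of knockdown 2 at 0.932 (0.789 and 0.847 across all genes), as a description, since the same genes enter both sides. DHX34 stayed at percentiles 4.11 and 3.45 and DDX18 at percentiles 90.1 and 93.4. DDX55 differed more, at percentiles 52.2 and 67.1 in knockdown 1 and 2 against percentile 89.9 in the control. In 18 of 34 genes (52.9%) the percentile was lower in both knockdown libraries than in the control, against 33.7% of all genes.

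The change of efficiency was tested as the interaction of assay and condition. Its median was -0.46 over the helicase genes and -0.27 over all genes, and the mean was below 0 in 30 of 34, against 68.6% of all genes. Pairing libraries by number, 24 of 34 had both knockdown values below the control, against 52.0% of all genes. No helicase gene passed in limma (0.0% of all genes did), and 1, DDX10, had an unadjusted p under 0.05, against 2.73% of all genes. Its change was -1.55 ± 0.51 (SE; limma unadjusted p = 0.020, adjusted p = 0.996), with -1.31 in pair 1 and -1.80 in pair 2. It joins lower footprints to higher mRNA in both libraries. DDX55, DDX59 and DDX11 stood at -1.61 ± 0.68, -1.33 ± 0.66 and -1.26 ± 0.93 (SE; limma adjusted p = 0.996 for each). The mRNA values of DDX55 and DDX59 were 7.83 and 10.4 in knockdown against 7.98 in the control, and 4.50 and 6.87 against 6.30, so in both genes 1 knockdown library lay on each side.

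DHX57 had the highest efficiency change, 0.42 ± 0.65 (SE; limma adjusted p = 0.996), and was the 1 gene with both pairs above the control, against 18.7% of all genes. Its mRNA value was low, at 2.61 and 2.60 in knockdown and 2.31 in the control. DDX23, DHX38 and DHX32 followed among genes with both pairs on 1 side, at -0.35, -0.35 and -0.36. DHX38 remodels the spliceosome before its second catalytic step, and its mRNA values of 26.2 and 29.0 in knockdown lay around 28.0 in the control. DHX9, DDX24, DHX30 and DHX34 had mean changes between -0.09 and 0.06, with 1 pair on each side of the control.

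m6A was mapped in control cells by antibody enrichment, and the authors' lists, 1 per replicate, hold windows whose peak to input ratio reached 3 or more, beside 460 windows in replicate 1 and 422 in replicate 2 that have an input of 0 and no ratio. Positions run along a transcript that the lists do not name, so whether a window lies in a coding or untranslated part is not given. In each replicate 31 of 34 helicase genes had a peak, against 77.1% of all genes in replicate 1 and 78.6% in replicate 2, and 30 had one in both (88.2%, against 72.5%). The helicases had higher median control values than all genes, and the part of level in these shares was not tested. The 1 peak of DDX52 in replicate 1 has an input of 0, and without it 29 genes had peaks in both. DDX1 and DDX39A had none, DDX27 had a peak in replicate 1 only and DDX49 in replicate 2 only. The genes held 108 peaks in replicate 1 and 104 in replicate 2, and 88 pairs of windows overlapped between replicates, in 29 genes. The median was 4 peaks per gene with a peak in replicate 1 and 3 in replicate 2, where the median over all listed genes was 2 in each. Peak ratios were typical of the lists, with medians of 5.995 and 6.13 for helicase peaks and 5.63 and 5.53 for all peaks.

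Each window carries a deposited 5-base motif and its position, shown here as the lists assign them to the window. For 70 of the 88 overlapping pairs, in 28 genes, both replicates named the same position. In 81 pairs the windows overlapped by 50% of each, so a shared position is partly given by the shared bases. In all 34 pairs with identical windows the input signal was identical too, so the replicates share an input and their ratios are not fully independent. The lists use 12 motifs, and every listed window carries 1 of them, so a motif is no separate evidence for the mark. An assigned position can lie outside its window. For DDX5, base 425 was assigned to the window at bases 250 to 350 in both replicates. Motifs that start with GGAC made up 22.2% and 22.1% of helicase peaks in replicates 1 and 2, and 30.7% and 29.5% of all peaks. AAACC was found in 13 helicase peaks in each replicate (12% and 12.5%, against 6.04% and 6.48% of all peaks).

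The highest ratios belonged to DDX51, which acts in assembly of the large ribosomal subunit. A window near the start of its transcript, at bases 175 to 400 in replicate 1 and 200 to 400 in replicate 2, had ratios of 95.5 and 70.5 with the motif AGACC at base 196 in both. Its signal was 3075 and 2270 in the immunoprecipitate over 32.2 in the input. A further window of DDX51 at bases 4150 to 4275 had a ratio of 63.5 in replicate 1, over an input of 7.80, and no partner in replicate 2.

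DDX6 held the most peaks, 7 in each replicate, of which 5 had the same position in both. Among them were AAACC at base 436 (ratios 5.11 and 6.98), GAACA at base 2031 (6.17 and 6.88) and GGACA at base 3946 (4.76 and 4.53). Its peaks were numerous and of modest ratio. DDX5 had 6 and 5 peaks, with GGACA at base 1883 at ratios of 5.64 and 8.49. DHX34 had 5 and 6 peaks, led by AGACC at base 569 (15.3 and 22.0), and DDX24 had 5 in each, led by AAACC at base 2766 (23.0 and 15.6). DDX17, the close paralogue of DDX5, had 5 in each, all with the same positions, led by GAACA at base 1622 (11.7 and 12.5).

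Among genes with large footprint or efficiency differences, DHX37 had GGACT at base 3852 with ratios of 25.4 and 26.9, and DHX57 had AAACT at base 4268 with 39.6 and 16.5. These ratios rest on low inputs, of 9.33 and 6.21 for DHX37 and 20.2 and 43.6 for DHX57. DDX55 had 4 peaks in each replicate with ratios of at most 6.45, and DDX59 had AAACT at base 652 with 10.6 and 16.0. DDX10 had 3 sites shared by both replicates, GGACC at base 2637, AAACC at base 2784 and GGACA at base 2916. The marked genes thus include DHX57, the 1 gene with higher footprints, as well as those with the lowest. DHX36 and DDX23 each had 1 peak per replicate, and that of DHX36 carried AGACT at base 3005 with ratios of 4.58 and 5.85.

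**Figure D3:**
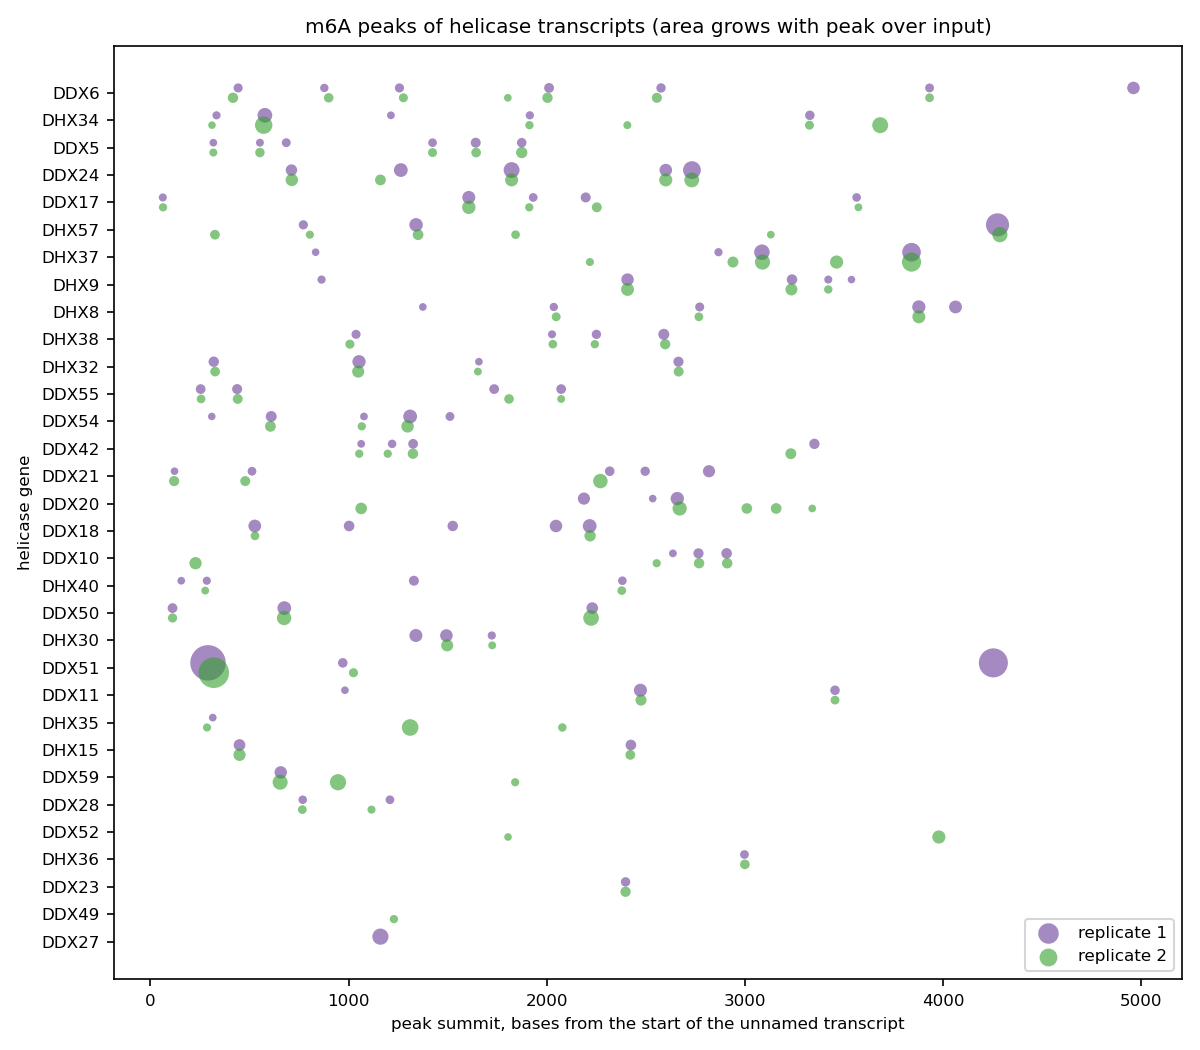
Peak summits of each helicase gene with a peak, in bases from the start of the unnamed transcript, for replicate 1 (purple) and replicate 2 (green), with the area of a point growing with the ratio of peak over input and 1 window without a ratio left out. Most points come in pairs, and the largest belong to DDX51.

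RNA bound by YTHDF1 was given as a list of genes with a RIP over input ratio of at least 1.5, from 1 RIP and 1 input library, so ratios have no replicate error. A gene outside the list may lie below that ratio or below the smallest listed input of 1 FPKM. Of the 34 helicase genes 19 were listed (55.9%), against 35.6% of all genes tested. The listed helicases had a median input of 15.04 FPKM, against 5.35 FPKM for all tested genes in the list. The part of level in the helicase share was not tested. All 19 also had m6A peaks in both replicates, as did 89.2% of all RIP-listed genes, so the helicases hardly differ from the list in this. By role, all 6 splicing genes were listed, 4 of 12 ribosome biogenesis genes, 4 of 6 genes of transcription and other nuclear steps, 2 of 4 of translation, decay and export, 1 of 2 mitochondrial genes and 2 of the 4 others. Ratios of the listed genes ran from 1.76 to 4.86 with a median of 2.70, where the whole list has a median of 2.28.

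DHX38 had the highest ratio of the family at 4.86, from 94.5 FPKM in the RIP over 19.5 FPKM in the input, at percentile 94.0 of the list. DHX34 followed at 3.80 (13.6 over 3.59 FPKM), DHX30 at 3.73 (114 over 30.5 FPKM), DHX8 at 3.53 (32.3 over 9.16 FPKM) and DDX11 at 3.36 (50.6 over 15.04 FPKM). Of these, DHX34 and DHX30 had the lowest control efficiencies of the family, while DHX8 lay at percentile 94.2. DDX23 had the highest RIP level, 235 FPKM over 74.5 FPKM. DHX9 stood at 2.44, DDX6 at 1.88 and DDX20, a subunit of the SMN complex, at 1.76. DDX5, DDX21, DHX36, DDX18, DDX10, DDX55 and DDX59 were not in the list, although each had m6A peaks.

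**Figure D4:**
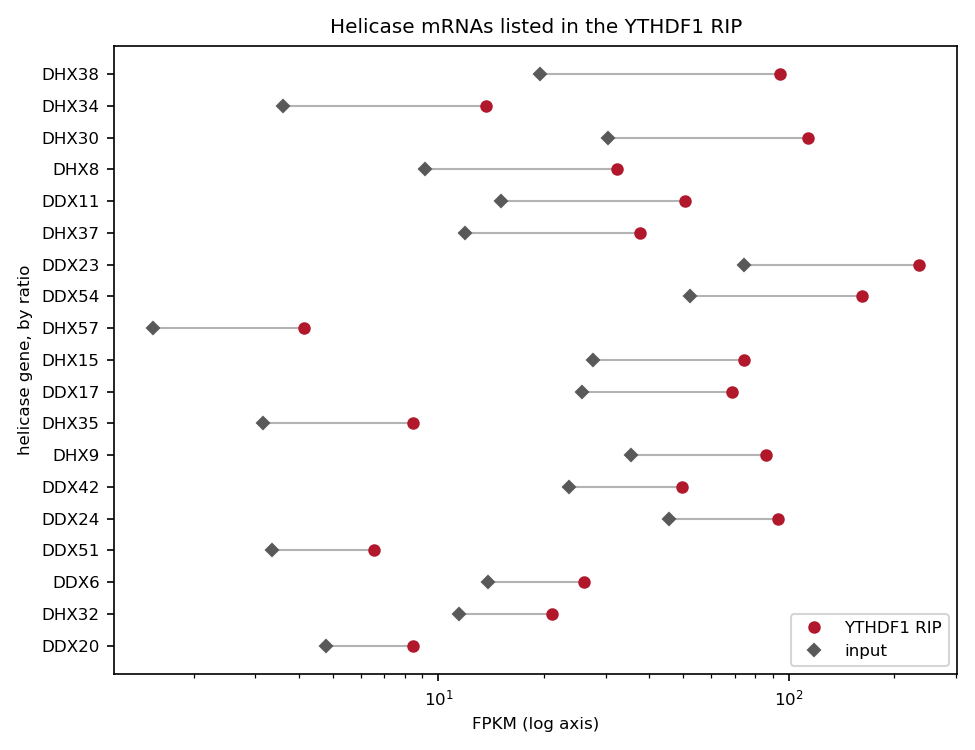
FPKM of the 19 listed helicase genes in the YTHDF1 RIP (circles) and its input (diamonds) on a log axis, ordered by their ratio. The gap between the points is widest for DHX38, at a ratio of 4.86, and narrowest for DDX20, at 1.76.

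Presence in the RIP list and the change after knockdown were set side by side. The 19 listed genes had a median footprint change of -0.63 and the 15 others -0.59, where all listed genes had -0.31 and all others -0.27. The median efficiency change was -0.41 in the 19 listed helicase genes and -0.63 in the 15 others, against -0.29 and -0.26 over all genes. In control cells the listed genes had a median log2 efficiency of 1.47 and the others of 2.08, against 0.67 and 1.31 over all genes. The genes with the lowest footprint changes stood on both sides, with DDX11, DHX37 and DHX8 listed and DDX59 and DDX55 not, and DHX57, the 1 gene with higher footprints, was listed at a ratio of 2.70. The 30 genes with m6A in both replicates had a median footprint change of -0.64 and the 4 others -0.22, where all genes so split had -0.29 and -0.25, and 4 genes are too few to read a contrast from.

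**Figure D5:**
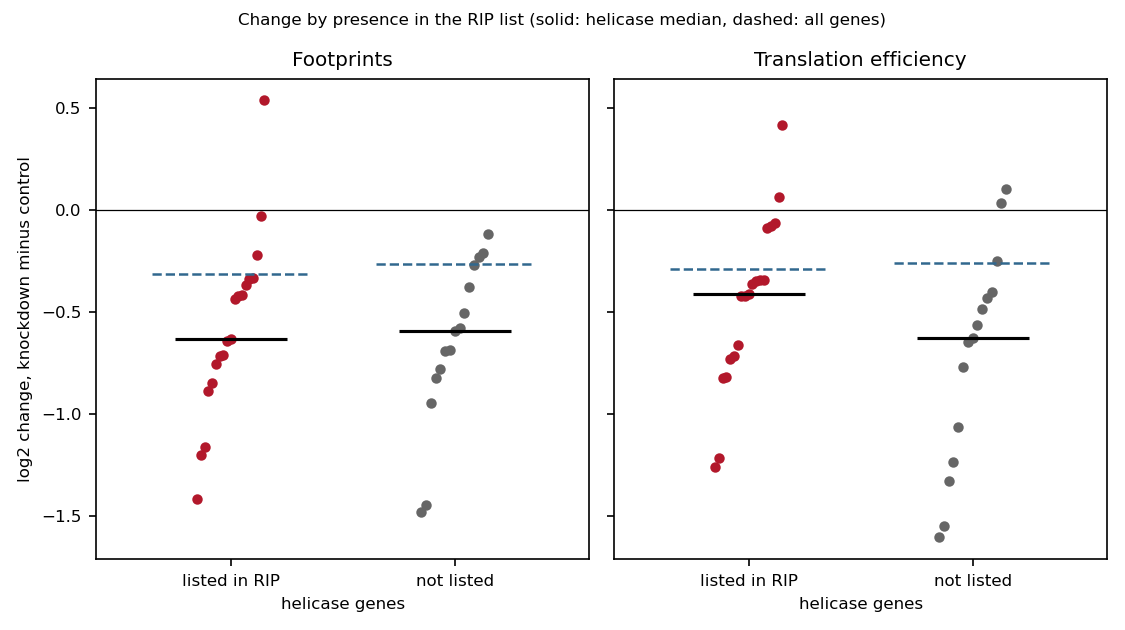
Log2 change after knockdown of the helicase genes listed in the RIP (red) and not listed (grey), for footprints on the left and translation efficiency on the right, with solid lines at the helicase medians and dashed lines at the medians of all genes so grouped. Footprint medians of the groups are -0.63 and -0.59, both below their dashed lines.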

How the data were processed

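Groups came from the sample titles. Per the submitters' processing notes STAR and GRCh38 were used; their versions, the quantifier and the peak caller are not stated there. The authors deposited a signal per gene for footprints and mRNA with no unit named. Depth is therefore unknown, and count models were not applied. The authors also deposited FPKM with their ratio for RIP, and windows with signals in immunoprecipitate and input and their ratio for m6A, per the file headers. Every control value is at least 0.5 while knockdown values reach 0, so the table appears filtered on the control.

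Analysis used log2(value + 1), and genes whose mean on that scale was at least 1 were kept (12 rows with damaged names and 132 genes left out). A limma-trend model (limma 3.58.1, R 4.3.3) gave 1 mean per assay and condition, with 2 residual degrees of freedom. For each gene 1 spread was estimated from both assays together, so a footprint SE or p-value also depends on the mRNA libraries, and the reverse. Controls, 1 per assay, enter as if they varied as much as knockdown libraries. The p-values therefore measure the spread between knockdown libraries of both assays, which may be technical. Tests were 2-sided with Benjamini-Hochberg adjustment over 6782 genes at 0.05. The fit was tested on simulated data. Figures were drawn with matplotlib 3.10.9. Efficiency, RIP and m6A levels are descriptions without a test. Genes named were DDX3X, DDX5, DDX6, DDX21, DHX9, DHX29, DHX30, DHX36, the 4 highest and lowest per contrast with knockdown libraries on 1 side of the control, the extremes of control efficiency, and the leaders in RIP and m6A. DHX8, DHX15, DDX18, DDX54 and the remaining examples were chosen after their values were seen, as were the 9 promoter motifs. Members and lists were chosen with earlier results of these data known. Alternatives covered pseudocount, filter, scaling, replicate block, each assay fitted alone, left-out libraries, RIP ratio, peak ratio and overlap.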

Additional observations from a re-analysis of the deposited data

How the results depend on the processing

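No helicase gene passed in footprints, mRNA or efficiency under any setting run, and with 1 control library per assay the design gives little power for single genes. Over all genes, the 2 footprint calls became 0 with a pseudocount of 0.5, no filter, median centring or quantile normalisation, and between 2 and 80 when 1 library was left out. With the replicate block (the knockdown number as a term in both assays, which the labels do not state to pair cultures, and whose deviations correlated at 0.37 across genes) 30 footprint, 2 mRNA and 6 efficiency calls were made, none of them helicases, and 13 helicase footprints (38.2%, against 18.2% of all genes) had an unadjusted p under 0.05. Leaving out 1 library gave 0 to 1 calls over all genes in mRNA and in efficiency. The helicase footprint median of -0.61 became -0.532 with a pseudocount of 5, -0.325 with median centring and -0.354 with quantile normalisation, and the efficiency median of -0.46 became -0.179 with median centring. The efficiency median relative to all genes, -0.19, ranged from -0.432 to -0.171 with 1 library left out. The efficiency of the helicases relative to all genes, 0.465 in the control, was 0.127 in knockdown 1 and 0.544 in knockdown 2. At a RIP ratio of at least 2 the list held 15 helicases, and 8 at 3. At a peak ratio of at least 5 in both replicates 25 helicases were marked, and 28 where windows overlapped by 50% of each. The shares of all genes at these RIP and m6A settings were not computed, so these counts do not show how the helicases compare there.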

Other observations

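Family members outside the expression table appeared in the other assays. Of 25 family symbols in the RIP list 6 were not in that table: DHX16 at a ratio of 3.72, DHX33 at 2.94, DDX31 at 2.55, DDX3X at 1.97, DDX41 at 1.61 and DHX29 at 1.54. DHX16 and DDX41 act in splicing. DDX3X and DHX29 help the small ribosomal subunit through structured leaders of mRNA. DDX3X had 3 m6A peaks in each replicate with the same sites, led by AGACC at base 2250 with ratios of 4.83 and 4.28. DHX29 had AAACC at base 1548 with ratios of 5.51 and 7.76. Its highest ratios were 27.3 (bases 1675 to 1850, replicate 1) and 23.3 (bases 1650 to 1975, replicate 2). These windows overlap but were assigned different positions. DDX19B, an mRNA export helicase, had a window at bases 325 to 550 with ratios of 53.1 and 29.5, and its paralogue DDX19A had AGACA at base 1563 with 21.8 and 17.0. In all, 14 family symbols outside the table had peaks.

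Of 21 listed RNA helicases of other families 12 were tested. Both knockdown libraries were below the control in footprints for 8 of them (66.7%, against 51.2% of all genes) and above for 0 (against 17.5%), with a median change of -0.60. None passed in limma, and 1 had an unadjusted p under 0.05 (8.33%, against 8.85% of all genes). MOV10, a helicase of mRNA decay, had footprints of 26.5 and 12.7 in knockdown against 47.9 in the control. SNRNP200, the helicase that unwinds U4 from U6, had 52.7 and 40.0 against 76.9 and a RIP ratio of 8.18. EIF4A2, a DEAD box initiation factor under another name, had 1697 and 3060 against 2052, on both sides of the control. EIF4A3, of the exon junction complex, had 138 and 104 against 178. Among partners of DEAD and DEAH box proteins, 23 of 36 listed were tested, with a median footprint change of -0.42. Both libraries were lower for 14 (60.9%) and higher for 3 (13%), near the shares of all genes. None passed in limma, and 1 had an unadjusted p under 0.05 (4.35%). MAGOH, which clamps EIF4A3 on RNA, had footprints of 229 and 198 in knockdown against 452 in the control, and EIF4G2, a scaffold of initiation, had 6648 and 8130 against 5279.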
